A study of Mus musculus with 14 samples.

Results

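The nuclear-encoded subunits of respiratory complex I were examined in ileum mucosa of WT and IKO mice on a high-fat diet (HFD). A gene was taken as a member when its row was annotated as protein coding and its symbol began with Nduf, followed by a, b, c, s or v and a number, or was Ndufab1. The assembly factors, whose symbols begin with Ndufaf, were left out. This gave 38 of the 54532 genes. There were 7 core subunits and 29 accessory subunits. The other 2, Ndufa4 and Ndufa4l2, carry the family name but encode proteins of the complex IV subunit family. Another 4 rows of matching name were pseudogenes or noncoding genes and were not taken.

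Complex I, NADH:ubiquinone oxidoreductase, is the entry point of NADH electrons into the respiratory chain of the inner mitochondrial membrane. It is L-shaped. The N module at the tip of the matrix arm oxidizes NADH on a flavin, the Q module passes the electrons along iron-sulfur clusters to ubiquinone, and the P modules in the membrane pump protons. The core subunits carry the catalysis. They are encoded partly in the nucleus, in the N and Q modules, and partly in mitochondrial DNA, in the membrane arm. Accessory subunits surround the core and are needed for assembly and stability. In the intestinal epithelium, absorptive enterocytes are rich in mitochondria and oxidize fuels taken up from the lumen and the blood.

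The WT group comprised 7 mice homozygous for a floxed NCoR1 allele (flox/flox) without Cre. The IKO group comprised 7 mice with the same floxed alleles and Cre recombinase under the villin promoter, which removes this nuclear receptor corepressor from intestinal epithelial cells and leaves it in other cells. All mice were males and were fed the HFD for 15 weeks. The methods of the study give 7 to 8 weeks as the age at the start of feeding with chow or HFD. A figure legend of the study gives an older age and a period of chow before the HFD. The age of these mice at the switch is thus not certain. Mucosa was scraped from the ileum, and the labels name the cells as intestinal epithelial cells. There was 1 library per mouse. Ncor1 itself was lower in IKO mice. Its level was 106 to 195 CPM (read counts divided by the TMM-scaled library size, on the usual CPM scale; median 130) in WT and 31.7 to 64.0 (median 47.7) in IKO mice. The genotypes did not overlap, and the log2 fold change of IKO over WT was -1.41 (SE, the standard error, 0.18; adjusted p = 0.00051, edgeR). The counts cover the whole gene and not the floxed part alone.

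The promoters of 33 members had an entry in the RefSeq promoter windows of GRCm38.p6, which run from 250 bases before to 50 bases after each annotated start. Those of Ndufv1 and Ndufa4 are printed because these genes passed the test between genotypes. Those of Ndufs4, Ndufs6 and Ndufs7 are printed because they carry a match to AAGATGGCG, a short form of the motif bound by YY1, which is in capitals.
Ndufv1, chr19:4012706-4013005, minus strand: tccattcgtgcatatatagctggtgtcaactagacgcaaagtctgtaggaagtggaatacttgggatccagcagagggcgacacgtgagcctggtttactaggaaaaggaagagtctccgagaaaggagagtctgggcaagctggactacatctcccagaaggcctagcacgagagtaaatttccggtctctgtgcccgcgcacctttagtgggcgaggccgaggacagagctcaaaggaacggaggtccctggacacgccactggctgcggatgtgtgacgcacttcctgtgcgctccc
Ndufa4, chr6:11907401-11907700, minus strand: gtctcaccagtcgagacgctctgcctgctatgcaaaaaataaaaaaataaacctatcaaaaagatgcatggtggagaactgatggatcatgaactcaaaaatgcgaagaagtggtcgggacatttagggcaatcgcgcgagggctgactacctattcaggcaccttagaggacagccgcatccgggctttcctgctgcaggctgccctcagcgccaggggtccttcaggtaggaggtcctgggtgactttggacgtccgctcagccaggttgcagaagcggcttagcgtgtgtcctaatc
Ndufs4, chr13:114388045-114388344, minus strand: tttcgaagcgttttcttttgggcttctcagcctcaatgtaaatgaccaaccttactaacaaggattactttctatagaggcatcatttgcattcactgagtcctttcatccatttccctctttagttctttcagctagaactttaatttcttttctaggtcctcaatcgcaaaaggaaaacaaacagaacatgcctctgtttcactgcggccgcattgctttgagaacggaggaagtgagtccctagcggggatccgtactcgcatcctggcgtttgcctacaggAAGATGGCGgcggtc
Ndufs6, chr13:73328433-73328732, minus strand: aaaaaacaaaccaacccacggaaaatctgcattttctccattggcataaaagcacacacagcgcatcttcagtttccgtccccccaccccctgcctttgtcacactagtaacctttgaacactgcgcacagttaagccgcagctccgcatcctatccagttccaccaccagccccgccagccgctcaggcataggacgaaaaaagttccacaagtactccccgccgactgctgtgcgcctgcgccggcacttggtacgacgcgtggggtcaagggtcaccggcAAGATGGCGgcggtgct
Ndufs7, chr10:80249199-80249498, plus strand: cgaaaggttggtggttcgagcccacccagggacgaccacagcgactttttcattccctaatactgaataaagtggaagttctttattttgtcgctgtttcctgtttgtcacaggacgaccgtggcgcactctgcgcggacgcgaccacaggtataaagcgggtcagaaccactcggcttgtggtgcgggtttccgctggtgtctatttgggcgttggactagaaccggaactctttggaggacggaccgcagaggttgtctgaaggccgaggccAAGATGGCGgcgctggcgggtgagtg

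Of 7 motifs searched on both strands, AAGATGGCG was the one held by a larger share of members than of all windows by the widest margin. It was in the windows of 5 of 33 members (15.2%), Ndufa9, Ndufc1, Ndufs4, Ndufs6 and Ndufs7, and in 1.40% of the 32851 windows over all genes. Each of these 5 matches lay on the gene's own strand and began 22 to 35 bases after the annotated start. The motif contains the letters ATG, and whether these matches include the start of the coding sequence was not tested. The other 28 members with an entry, Ndufv1 and Ndufa4 among them, had no such match. The NRF1 palindrome was in 1 member's window (Ndufa11, 3.03% of members and 0.971% of windows), and the ETS motif CCGGAAGT, which GABP binds, in 1 (Ndufs3, 3.03% and 3.89%). The estrogen-related receptor motif TCAAGGTCA was in 0 members and 0.423% of windows. The direct repeat with a spacer of 1 base (DR1), of the kind PPARα binds with RXR, was in 0 members and 0.0396% of windows. CCAAT was in 30.3% of members and 37.4% of windows, and the GC box GGGCGG in 45.5% and 35.7%. The receptor motifs share the letters AGGTCA, the others do not contain each other, and a match describes the letters only.

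Several libraries stood apart. Between 14749669 and 21557468 reads per mouse were counted on genes. The share of mitochondrially encoded genes was 50.3% of all reads counted for IKO 4 and 23.9% for WT 3, against 3.49% to 10.3% for the other 12 libraries. IKO 2 had the highest IKO level of 36 of the 37 members tested, and IKO 3 the lowest of 29. In IKO 2 the members' median level was 1.27 higher on the log2 scale than the mean of the other IKO mice, and in IKO 3 it was lower by 0.81 (a log2 difference of -0.81). WT 4 had the highest WT level of 25 members, with a median 0.72 above the other WT mice. WT 4 also held 13004 CPM of 7 smooth muscle genes in sum, IKO 1 held 1113 and IKO 2 held 590, and the other 11 libraries held 124 to 199. In IKO 2 short transcripts were high beyond the members. Among genes that are no members, those with a principal transcript under 1 kb were higher in IKO 2 than in the other IKO mice by a median of 0.84 (log2), and those of 4 kb and over were at -0.31. The part of smooth muscle content and of transcript length in the results was not tested beyond the values given with and without these libraries.

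All 37 members tested had a positive log2 fold change of IKO over WT, but only 3 passed the test. Ndufv1 and Ndufa4 were among them, and each of the 3 was higher in IKO mice. They were 8.11% of the members, against 4.38% of the 13846 genes tested. Without Ndufa4, which belongs to the complex IV family, 2 of 36 were called and the median log2 fold change was 0.51. None of the members was called lower, against 4.28% of all genes. At an unadjusted p under 0.05, 16 of 37 members (43.2%) were higher, against 11.9% of all genes, and 0 were lower. IKO and WT mice did not overlap for 2 members (5.41%), against 1.83% of all genes for which every IKO mouse was above every WT mouse. The members' median log2 fold change was 0.51, with the middle 50% of them between 0.42 and 0.62. The median over all genes was -0.09, and 43.5% of all genes were above 0. The members share their libraries and vary together among mice, so 37 positive values are not 37 separate observations. In the scraped mucosa, a larger share of cells rich in these transcripts and more RNA per cell cannot be told apart.

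**Figure D1:**
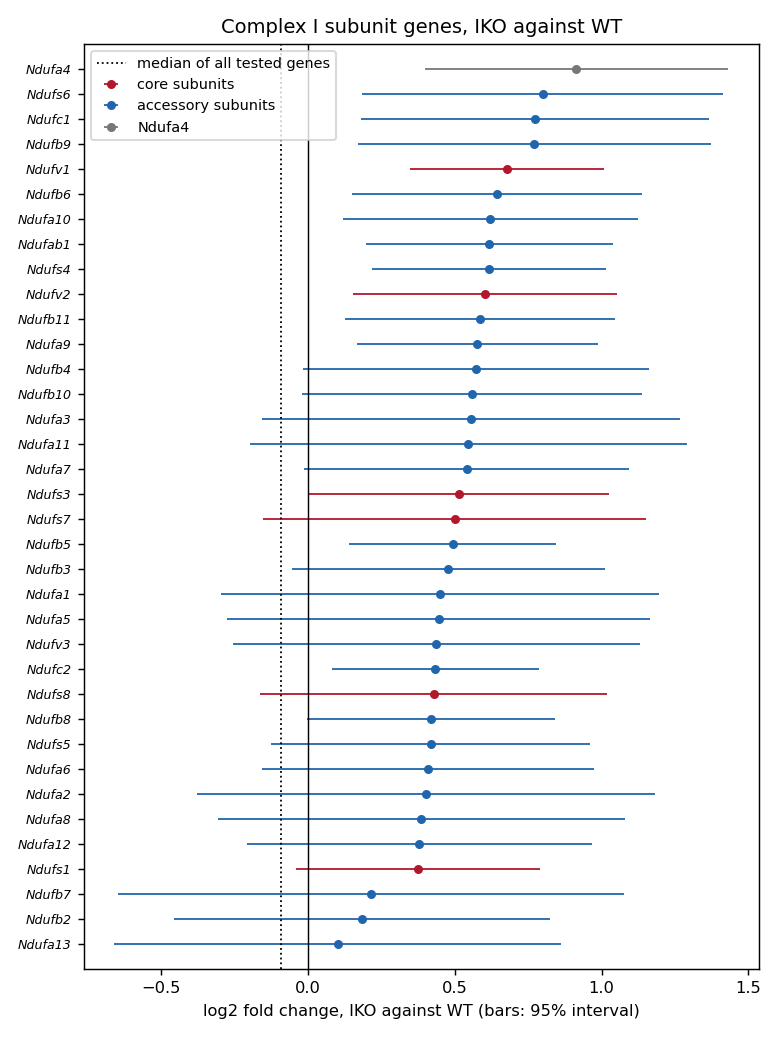
Log2 fold change of IKO over WT (x axis) for 36 of the 37 members tested (rows), with bars for the 95% interval and colors for core subunits, accessory subunits and Ndufa4. Every point lies to the right of 0, from 0.10 for Ndufa13 to 0.91 for Ndufa4, and the intervals of 21 of the 36 include 0.

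Leaving out IKO 2 lowered most of these values. Without it, 33 of 37 members were above 0, against 41.3% of all genes, 2 were called (3.25% of all genes were called higher) and the median was 0.28. The 4 below 0 were Ndufa13 (-0.25), Ndufb7 (-0.25), Ndufb2 (-0.21) and Ndufa2 (-0.02), named here after their values were seen. Ndufv1 was still called without IKO 2 (log2 fold change 0.60, adjusted p = 0.031, edgeR) and Ndufa4 was not (0.76, adjusted p = 0.061, edgeR). Leaving out WT 4 moved the members the other way, to 5 called (2.91% of all genes) and a median of 0.66. Without IKO 3, 5 members were also called (3.76% of all genes) and the median was 0.59. Without WT 3 and IKO 4, the mice with the large mitochondrial shares, 37 of 37 were above 0, 3 were called (3.06% of all genes) and the median was 0.51. The trend with transcript length was also removed, from each library around the mean of its genotype and then from the difference between genotypes. After that, 36 of 37 were above 0, 6 were called (8.36% of all genes) and the median was 0.37, with the median of all genes at 0.03. The removal also takes out variation within a genotype, and its part in the number of calls was not tested. The 1200 genes called over the whole table were 607 higher and 593 lower. That split was 1157 higher and 350 lower with the length trend removed, 552 and 910 with upper quartile normalization, and 708 and 328 with limma on log2(FPKM + 1).

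Ndufv1 encodes the flavin subunit of the N module, where NADH gives up its electrons. The gene lies on chromosome 19 (4007497 to 4012806, mm10). Its level was 77.1 to 114 CPM (median 101) in WT and 116 to 211 (median 165) in IKO mice, so the lowest IKO mouse, IKO 6, was just above the highest WT mouse, WT 6. Ndufv1 rose 1.60-fold, with a 95% interval of 1.27 to 2.01 and a log2 value of 0.68 (SE 0.16, adjusted p = 0.018, edgeR). All 3432 divisions of the 14 mice into 7 and 7 gave an exact two-sided permutation p = 0.000583, the smallest they can give. The lack of overlap alone fixes this value, so it adds nothing to it. WT 4, high for most members, was in the middle of the WT mice for Ndufv1, and IKO 2 was the highest IKO mouse. Within a genotype, Ndufv1 varied less between mice than any other member (SD 0.25 on the log2 scale). Its adjusted p was above 0.05 in 1 set of left-out mice, without WT 3, WT 4 and IKO 4 (0.64, adjusted p = 0.081, edgeR).

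Ndufv2, its iron-sulfur partner in the N module, was at 94.8 to 185 CPM (median 124) in WT and 120 to 323 (median 191) in IKO mice. The genotypes overlapped, with 4 of 7 IKO mice above the highest WT mouse, and the log2 fold change of 0.60 (SE 0.21) did not pass the test (adjusted p = 0.078, edgeR). It did with DESeq2 (adjusted p = 0.030) and with the length trend removed (adjusted p = 0.038, limma). Ndufs1, the largest N module subunit, which carries iron-sulfur clusters, differed from the other core subunits in which mice were high. Its level was 48.4 to 97.2 CPM (median 76.1) in WT and 58.8 to 131 (median 92.7) in IKO mice, and IKO 2 and WT 4, which led most members, were the lowest of their genotypes. Its log2 fold change was 0.37 (SE 0.20, adjusted p = 0.21, edgeR) and 0.47 without IKO 2 (adjusted p = 0.12, edgeR). Ndufs1 has the longest principal transcript of the core subunits, 2661 bases. On the opposite strand it overlaps Eef1b2, a gene with 71599 counts over all mice against 21448 for Ndufs1, and whether the counting used strand is not stated.

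**Figure D2:**
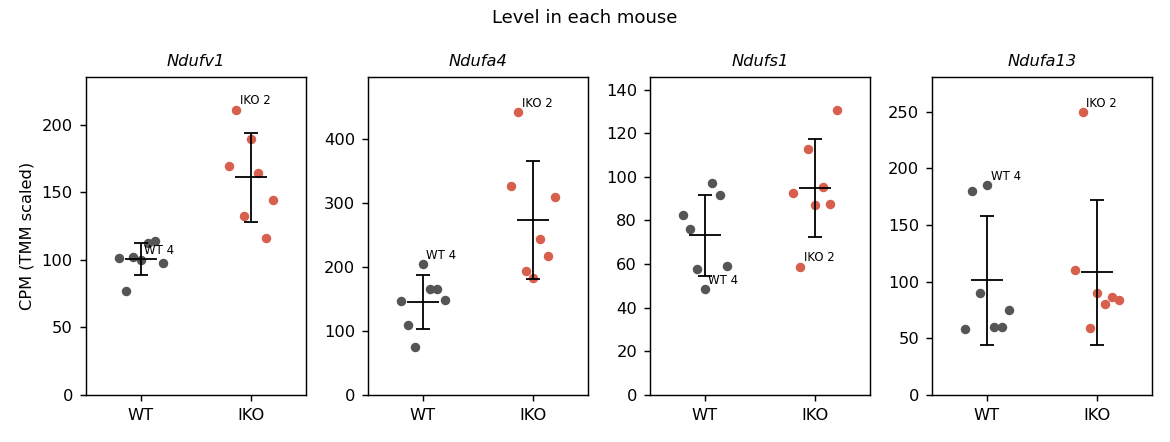
Level in CPM (y axis) of Ndufv1, Ndufa4, Ndufs1 and Ndufa13 in each of 7 WT and 7 IKO mice (points), with the mean and SD as horizontal and vertical bars. Only Ndufv1 of these 4 has all IKO mice above all WT mice, and IKO 2 is the highest IKO mouse in 3 panels and the lowest for Ndufs1.

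The Q module subunits Ndufs3, Ndufs7 and Ndufs8 shared the mice at the top of each genotype. Ndufs3, which helps to shape the ubiquinone-facing part of the matrix arm, was at 55.0 to 109 CPM (median 60.3) in WT and 57.1 to 188 (median 87.1) in IKO mice. Ndufs7, which holds the iron-sulfur cluster next to ubiquinone, was at 61.8 to 163 CPM (median 67.9) in WT and 65.0 to 273 (median 99.3) in IKO mice. Ndufs8, which holds the pair of clusters before it, was at 59.9 to 131 CPM (median 61.4) in WT and 61.7 to 205 (median 80.1) in IKO mice. In all 3 genes WT 4 was the highest WT mouse, IKO 2 the highest and IKO 3 the lowest IKO mouse, and IKO 2 alone was above the highest WT mouse. Their log2 fold changes were 0.51 for Ndufs3 (SE 0.24, adjusted p = 0.16), 0.50 for Ndufs7 (0.31, adjusted p = 0.28) and 0.43 for Ndufs8 (0.28, adjusted p = 0.31), all by edgeR. Without IKO 2 these were 0.28, 0.18 and 0.15.

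The median log2 fold changes of accessory and core subunits lay close together, 0.49 (0.10 to 0.80) for accessory and 0.51 for core subunits, while the median standard error was 0.28 for accessory and 0.21 for core subunits. Core and accessory subunits thus differed less in their median log2 fold change than in their median standard error. The standard error describes the uncertainty of each gene and not the spread of the log2 fold changes within a class. The difference between the classes was given no test, since they share every library. The order of the 2 medians turned in some alternatives, as without WT 2 (0.55 for core and 0.59 for accessory subunits). The medians lay furthest apart in 2 of the alternatives. Without IKO 2 they were 0.45 for core and 0.25 for accessory subunits, and with the length trend removed they were 0.47 and 0.32.

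Along the complex, the medians were 0.52 for 8 N module members, 0.51 for 8 Q module members, 0.45 for 9 members of the proximal P module and 0.53 for 10 of the distal P module. Ndufab1, the mitochondrial acyl carrier protein found in both arms, was at 0.62 (adjusted p = 0.060, edgeR). The subunits were placed in modules from general structural knowledge, and those at a boundary could be placed otherwise. No module stood out in its median.

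Ndufs6, an accessory subunit that binds zinc in the N module, had the largest log2 fold change among the accessory subunits. Its level was 36.6 to 69.1 CPM (median 39.8) in WT and 43.1 to 188 (median 62.8) in IKO mice, and 3 of 7 IKO mice were above the highest WT mouse. The log2 fold change was 0.80 (SE 0.29, adjusted p = 0.085, edgeR; exact two-sided permutation p = 0.024) and 0.45 without IKO 2 (adjusted p = 0.15, edgeR). Ndufs6 passed with DESeq2 (adjusted p = 0.040) and in no other fit. On the opposite strand Ndufs6 overlaps Mrpl36, with 7730 counts against 16190. Ndufs4, also of the N module and shown with its promoter, lay close to the threshold, with 56.1 to 105 CPM (median 67.6) in WT, 76.2 to 164 (median 105) in IKO mice and a log2 fold change of 0.62 (SE 0.19, adjusted p = 0.052, edgeR). All 7 IKO mice were above the WT median of Ndufs4, and 3 were above the highest WT mouse. Ndufs4 passed with DESeq2, RLE normalization, voom, limma on FPKM, the length trend removed, and without WT 4 or IKO 3. It passed in none of the other fits. Among these were upper quartile normalization, the other filters, the block, the fit without mitochondrially encoded genes, and those without any other single mouse.

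At the other end, Ndufa13, a membrane-arm subunit also known as GRIM-19, had the smallest log2 fold change, 0.10 (SE 0.36, adjusted p = 0.87, edgeR). It was at 57.9 to 185 CPM (median 74.7) in WT and 58.9 to 249 (median 86.3) in IKO mice, with WT 4 and IKO 2 the highest and WT 1 and IKO 3 the lowest. Its 95% interval for the fold, 0.63 to 1.82, covers the fold of every other accessory subunit. Ndufa13 turned to -0.25 without IKO 2 and to -0.01 without WT 1. Ndufb7, a distal membrane-arm subunit named here after its values were seen, varied most between mice of a genotype (SD 0.80 on the log2 scale). It was at 74.6 to 249 CPM (median 96.4) in WT and 73.3 to 435 (median 113) in IKO mice, and its log2 fold change was 0.21 (SE 0.41, adjusted p = 0.75, edgeR).

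Ndufa4, found first with complex I and now placed in complex IV, had the largest log2 fold change of all 37 members. The gene lies on chromosome 6 (11900292 to 11907497, mm10). Its level was 74.9 to 205 CPM (median 149) in WT and 182 to 442 (median 243) in IKO mice. All 7 IKO mice were above the WT median, 5 were above the highest WT mouse, WT 4, and 2 were below it. Ndufa4 rose 1.88-fold, with a 95% interval of 1.32 to 2.70 and a log2 value of 0.91 (SE 0.24, adjusted p = 0.034, edgeR; exact two-sided permutation p = 0.0017). The call was lost without any of WT 1, WT 3, WT 7, IKO 1, IKO 2, IKO 5 or IKO 7, with adjusted p between 0.051 and 0.069 (edgeR) in these fits, and the log2 fold change kept between 0.76 and 0.94. Its relative Ndufa4l2, known for its rise in low oxygen, was near the limit of detection and was not tested. It had 0 to 41 counts per WT library, with 41 in WT 4 and 16 in WT 3, and 1 to 6 counts per IKO library.

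Mouse by mouse, core and accessory subunits were high and low in the same mice. The mean log2 CPM of the core subunits was 6.32 to 6.94 (median 6.54) in WT and 6.63 to 7.74 (median 7.04) in IKO mice, and 5 of 7 IKO mice were above the highest WT mouse. That of the accessory subunits was 5.48 to 6.53 (median 5.68) in WT and 5.67 to 7.40 (median 6.21) in IKO mice, and only IKO 2 was above the highest WT mouse. These means are not per length, so they compare mice within a class and not the classes with each other. Accessory subunits were highest relative to the core subunits in WT 2, IKO 2 and WT 4. In summed CPM over the members, WT mice ranged from 2289 to 4266 (median 2538) and IKO mice from 2655 to 7930 (median 3745), and every IKO mouse was above the WT median.

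**Figure D3:**
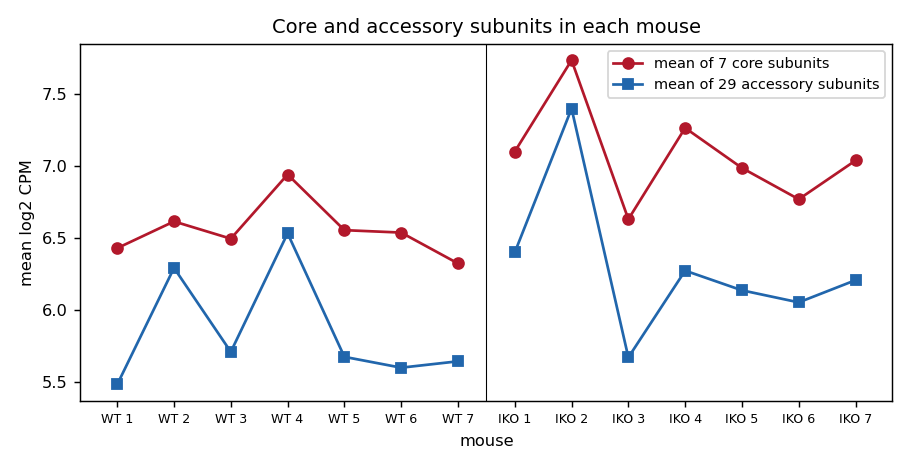
Mean log2 CPM (y axis) of the 7 core subunits and the 29 accessory subunits in each mouse (x axis); lines join mice of a genotype for reading only, since mice have no order. The 2 classes move together, with IKO 2 at 7.74 and 7.40 above all other mice and IKO 3 inside the WT range in both.

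Accessory subunits had shorter transcripts and varied more within a genotype. The principal transcript had a median length of 763 bases (419 to 4371) for accessory and 1623 bases (983 to 2661) for core subunits. The SD between mice of a genotype, on the log2 scale, had a median of 0.53 (0.28 to 0.80) for accessory and 0.39 (0.25 to 0.58) for core subunits. IKO 2 exceeded the other IKO mice by a median of 1.30 (log2) in accessory and 0.87 in core subunits, and WT 4 exceeded the other WT mice by 0.73 and 0.60. Members were above other genes of like length in the comparison of genotypes too. Among genes under 1 kb the median log2 fold change was 0.21 over 1463 genes and 0.50 over the 21 members of that length, and from 1 to 2 kb it was 0.04 over 2972 genes and 0.55 over 12 members.

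**Figure D4:**
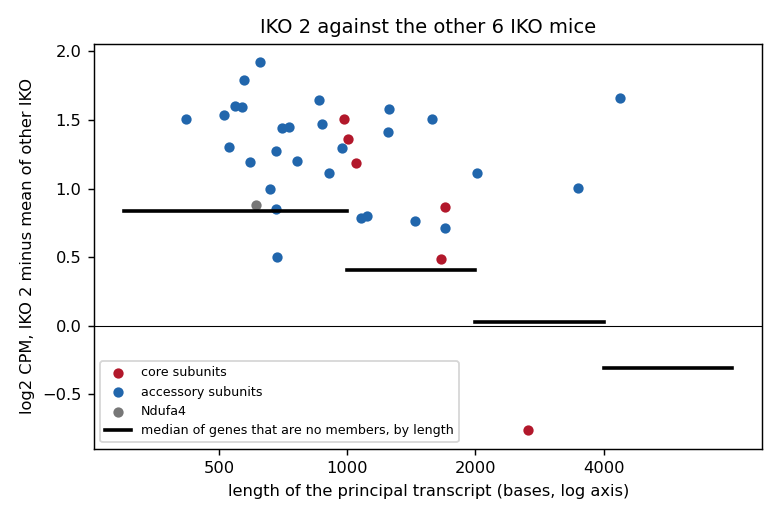
Difference in log2 CPM between IKO 2 and the mean of the other 6 IKO mice (y axis) against the length of the principal transcript in bases (log x axis) for 36 members (points), with the median of genes that are no members in 4 ranges of length (horizontal lines). Other genes fall from 0.84 under 1 kb to -0.31 at 4 kb and over, most members lie above the line of their length, and Ndufs1 lies below 0.

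Per length, the levels of different subunits could be compared. In the deposited FPKM, which divide by the full annotated length of a gene, the members other than Ndufa4l2 ranged in WT mice from 1.35 (Ndufb2) to 149 (Ndufa2), with a median of 49.4, and in IKO mice from 1.57 to 202 with a median of 71.8. The highest in WT were Ndufa2 (149 ± 69.3, SD, n = 7), Ndufa1 (108 ± 54.7) and Ndufa4 (103 ± 30.1), neighbours whose means differed by less than their SD. The lowest were Ndufs1 (8.87 ± 2.33), Ndufab1 (8.33 ± 1.42) and Ndufb2 (1.35 ± 0.37), and of these Ndufs1 and Ndufab1 differed by less than their SD. Ndufb2 overlaps Braf on the opposite strand, with 2582 counts against 2114, and Gm42420 on its own strand, with 0 counts. Whether these overlaps lowered its count, and whether its principal transcript of 4371 bases is the one expressed, was not tested. The order rested on the length used. The annotated length is up to 7.26 times the principal transcript, in Ndufb7, and per kilobase of the principal transcript Ndufa6 (242 CPM per kb), Ndufa4 (238) and Ndufb7 (227) led in WT. On that scale, core and accessory subunits had medians of 73.5 and 80.8 CPM per kb in WT, and 28 of 37 members lay within 2-fold of the members' median. Of the members, 20 overlap another annotated gene, 16 of them on the opposite strand, and for 10 of these the neighbour held over 5% of the member's counts.

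The 7 subunits that mitochondrial DNA encodes, the core of the membrane arm, followed other mice than the nuclear ones. Their genes mt-Nd1 to mt-Nd6 and mt-Nd4l had a median log2 fold change of 1.21 with a median standard error of 0.72. None was called (edgeR), and 2, mt-Nd3 (1.85, adjusted p = 0.16) and mt-Nd4l (1.94, adjusted p = 0.12), had an unadjusted p under 0.05. The median was 0.16 without WT 3 and IKO 4. In sum they held 10930 to 65139 CPM (median 16317) in WT, with WT 3 the highest, and 13073 to 254426 (median 20910) in IKO mice, with IKO 4 the highest. Divided by the summed CPM of the 36 nuclear subunits, this came to 4.02 to 26.3 (median 5.94) in WT and 2.79 to 65.6 (median 6.48) in IKO mice. IKO 2 had the lowest ratio of all 14 mice and IKO 4 the highest.

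**Figure D5:**
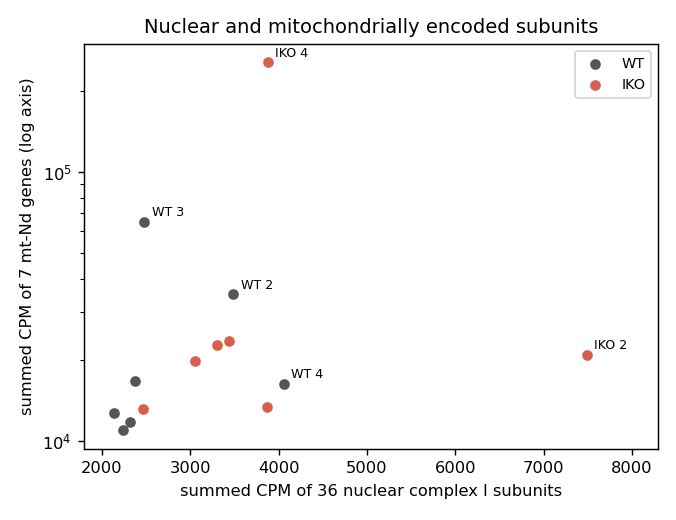
Summed CPM of the 36 nuclear complex I subunits (x axis) and of the 7 mt-Nd genes (log y axis) in each mouse (points, colored by genotype). IKO 4 (254426 CPM of mt-Nd genes) and WT 3 (65139) stand out on the y axis, and IKO 2 (7489 CPM of nuclear subunits) on the x axis.

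Of 16 assembly factors tested, which build the complex without staying in it, 11 were above 0, with a median of 0.18. The 1 called was Foxred1, a flavoprotein needed for complex I assembly, at 12.4 ± 1.76 CPM (SD, n = 7) in WT and 17.6 ± 1.63 in IKO mice (log2 fold change 0.51, SE 0.14, adjusted p = 0.033, edgeR), and its adjusted p was above 0.05 in 15 of 27 alternatives (up to 0.11), among them those without WT 1, WT 3, WT 4, WT 7, IKO 1, IKO 2, IKO 3, IKO 5 or IKO 7. Of 12 regulators of mitochondrial genes, 4 were above 0, with a median of -0.13, and with the length trend removed 8 were above 0, with a median of 0.10. The 1 called was Ppara, the nuclear receptor PPARα, at 20.0 ± 10.3 CPM in WT and 58.7 ± 31.3 in IKO mice (log2 fold change 1.55, SE 0.40, adjusted p = 0.029, edgeR). It lost the call in 6 of 27 alternatives (adjusted p up to 0.098), among them those without WT 7, IKO 3 or IKO 4, and leaving out 1 mouse at a time gave a log2 fold change of 1.30 to 1.68.

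The other respiratory complexes are set beside complex I for their values. Complex II, succinate dehydrogenase, had 3 of 4 genes called higher and a median log2 fold change of 0.74. Nuclear genes of complex III had 3 of 9 called (median 0.72), of complex IV 2 of 10 (0.71) and of complex V, the ATP synthase, 5 of 15 (0.67). Among 8 genes of other routes of electrons to ubiquinone, 1 was called, Sqor, the sulfide quinone oxidoreductase (1.34), and the median was 0.52. None of these genes was called lower. Without IKO 2 the medians were 0.71 for complex II, 0.53 for III, 0.46 for IV and 0.48 for V, with 1, 2, 2 and 4 genes called, beside 0.28 and 2 of 37 for the complex I members. The 5 calls of complex V became 2 without WT 4 and 1 without WT 3 and IKO 4, and the 3 of complex II became 1 in each of these. With the length trend removed, 3, 5, 4 and 7 were called, beside 6 of 37 members and 8.36% of all genes.

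Markers of cell types moved between mice as well, and their part in the results was not tested. Summed CPM of 6 enterocyte genes were 15797 to 43030 (median 29031) in WT and 32062 to 39742 (median 34803) in IKO mice. Of the 6, 5 were above 0, with a median log2 fold change of 0.34 and 0 called. In the mean of each genotype, most of this sum came from Fabp2. Fabp6, the 1 below 0 (-0.46), was at 186 to 7661 CPM (median 2930) in WT and 24.7 to 6143 (median 2215) in IKO mice. Its lowest values were in IKO 1 (24.7), IKO 2 (127), WT 5 (186) and WT 6 (192). Summed CPM of 4 crypt and proliferation genes, among them the stem cell marker Lgr5, were 83.8 to 256 (median 207) in WT and 38.5 to 152 (median 100) in IKO mice. All 4 were below 0, with a median of -1.04, 3 at an unadjusted p under 0.05 and 0 called. All 7 IKO mice were under the WT median of the crypt sum. For 3 villus tip genes the sums were 832 to 8140 (median 3353) in WT and 2446 to 8093 (median 6250) in IKO mice, most of it from Apoa4. Of these, Ada was at 0.97 and Apoa4 at 0.77 on the log2 scale and Nt5e was at -0.997, and 0 were called (edgeR). Smooth muscle genes had a median of -3.08, and 2.91 without WT 4, with 0 of 7 called in both. For 4 fibroblast genes the median was -1.88, and -0.43 without WT 4, with 1 of the 4 then above 0. It was -0.64 for 5 immune genes and 0.12 for 4 goblet cell genes. For 3 Paneth cell genes it was 0.18, and turned to -0.35 without WT 3 and IKO 4 and to -0.18 with the length trend removed. None of these genes was called (edgeR).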

How the data were processed

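RNA from ileum mucosa of 7 WT and 7 IKO mice was sequenced as paired-end reads on a NovaSeq after NEBNext library preparation. Per the labels, reads were aligned with HISAT2 2.0.5 to mm10 and counted with featureCounts 1.5.0-p3. The strand setting and filters are not given in the sources used here. The deposited counts are whole reads per gene without normalization. The deposited FPKM equal counts per kilobase of annotated gene length, divided by a DESeq2 size factor times a constant, as checked on the values.

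Genotypes were compared by the quasi-likelihood test of edgeR 4.0.16 (R 4.3.3) on counts of the genes kept by filterByExpr, with TMM factors and no covariate. Adjusted p-values are those of Benjamini and Hochberg across all 13846 genes that entered the test. A gene was called at an adjusted p under 0.05. The standard error is the log2 fold change divided by the root of F, and intervals are at 95%. Log2 CPM have a prior count of 2. Exact permutation tests of single members used all 3432 divisions into 7 and 7. The script was tested on simulated data. The members tested had 2114 or more counts each over all mice, and Ndufa4l2, which was not tested, had 79. Transcript lengths are those of the APPRIS principal transcript, the longest where there were several, in GENCODE annotation of GRCm38. Promoter windows are from RefSeq.

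The members and all lists were chosen with earlier results of these data known. The genes named are members that were called, core subunits, Ndufs6, the members with the largest and the smallest log2 fold change, Ndufa4 and Ndufa4l2, and of the other lists Ncor1, mitochondrially encoded subunits and called assembly factors and regulators. Some results that this rule takes are not reported here. Others are named for a stated reason.

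Alternatives were DESeq2 1.42.0, other normalizations and filters, limma 3.58.1 on log2 FPKM (pseudocounts 1 and 0.1, FPKM over 0.5 in at least 7 samples), voom with sample quality weights, a block for the sample number, and libraries left out. Removal of the trend with transcript length (lowess, span 0.3, then limma), another wording of core, and leaving out Ndufa4 and Ndufa4l2 were added after the data were seen. The length trend was taken from each library around the mean of its genotype, and then from the difference between genotypes.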

Additional observations from a re-analysis of the deposited data

Results flagged for a closer look

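In groups of 7 mice, a value was marked when the gap between the highest or lowest mouse and its neighbour, divided by the group's range, was above Dixon's 95% critical value. Chance marks about 1 in 20 groups. Of 78 groups examined, 36 were marked, against 3.9 by chance, and the groups are not independent because the members vary together. Among members, 26 of the marks were for IKO 2 as the highest IKO mouse and 9 for WT 4 as the highest WT mouse.

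For IKO 2 the values were 249 CPM for Ndufa13, 273 for Ndufs7, 188 for Ndufs3 (187.9) and 188 for Ndufs6 (188.1), and 7930 CPM for the sum over the members. For WT 4 they were 163 CPM for Ndufs7, 131 for Ndufs8 and 109 for Ndufs3. The core subunit Ndufv1 and Ndufa4, which passed the test, were marked in neither genotype.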

How the results depend on the processing

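The 3 calls among the 37 members became 14 with DESeq2, 9 with voom and sample quality weights, 6 with the length trend removed, 0 with the sample number as a block and 1 without WT 3, WT 4 and IKO 4. Over all genes, 1186 of 13846 were called higher with DESeq2, 993 of 13846 with voom and 226 of 13846 with the block. With the length trend removed 1157 of 13835 were called higher, and without WT 3, WT 4 and IKO 4 276 of 14038. In the main fit it was 607 of 13846. Leaving out 1 mouse at a time gave 2 to 5 calls among the members and 515 to 1371 over all genes. The 1200 calls over all genes became 2484 with DESeq2, 1889 with voom, 508 with no filter, 362 with the block, 648 without WT 3 and IKO 4 and 433 without WT 3, WT 4 and IKO 4. The sample numbers are not said to pair the mice. Deviations of mice with the same number correlated between -0.31 and 0.23, and 1 of 7 WT mice correlated best with its own number. These correlations cannot exclude a pairing, since single libraries stood apart. With the block, Ndufv1 was at an adjusted p of 0.088 and Ndufa4 at 0.087 (edgeR). Ndufa13 reversed to -0.25 without IKO 2 and to -0.01 without WT 1, and leaving out 1 mouse at a time gave it -0.25 to 0.32. The causes of these changes were not tested. Every median of members, core and accessory subunits stayed above 0 in every alternative run. Ndufs1, Ndufs3, Ndufs7 and Ndufs8 kept their direction and passed in none of 27 alternatives, Ndufv2 passed in 3 and Ndufs6 in 1. Depth was lowest for Ndufb2 among the members tested, with 2114 counts over all mice, and Ndufa4l2 was too low to be tested.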
